A study of Rattus norvegicus and Mus musculus with 18 samples.

Results

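Bud tips were set against metanephric mesenchyme in the embryonic mouse kidney, using the 4 arrays titled as ureteric bud tip or metanephric mesenchyme, out of 18 arrays in the study. There were 2 tip and 2 mesenchyme arrays, and all probe sets on the design were considered. The tissue came from mice at E12.5. No strain, genotype or treatment other than dissection is given in the labels. Kidneys were taken apart with trypsin and DNase for 10 min, the mesenchyme was freed with fine pins, and tips were cut from stalks. Per the labels, buds and mesenchyme were checked for carry-over of each other by eye and by a lectin stain of the bud. About 1000 tips and about 300 mesenchymes were pooled, so many animals contributed to each RNA. Each pool was labelled 2 times, and the 2 arrays of a tissue are repeat labelings of 1 pooled RNA, so every p-value below measures the spread of labelling and hybridisation and not the spread between animals. The 2 arrays of bud stalks from the same dissection entered the statistical fit and are also given where they help.

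The ureteric bud is an epithelial tube that grows out of the nephric duct and branches to form the collecting ducts. Its tips receive GDNF from the mesenchyme through the receptor Ret, and they send back Wnt signals. The metanephric mesenchyme holds the progenitors of the nephron, which later turn into epithelium, and the stroma, and it also carries vessels and blood cells. The comparison therefore asks which transcripts separate a polarised epithelium from the loose tissue it grows into. In pooled tissue, fewer cells of a type and less RNA per cell cannot be told apart.

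The deposited values were probe set intensities on a linear scale, quantile normalised here and compared as log2(intensity + 16), where adding 16 shrinks the differences of dim genes. A gene is represented by its brightest probe set. A difference was called when limma's Benjamini-Hochberg adjusted p was under 0.05 and the tissues differed at least 2-fold on that scale, and all differences below are log2 tip minus mesenchyme. Over the 23971 tested probe sets the 2 tip arrays correlated at r = 0.987 and the 2 mesenchyme arrays at r = 0.993, while a tip with a mesenchyme array gave 0.908 to 0.920. These correlations are across genes, which are not replicates. A 2-fold difference between the 2 labelings of a tissue was seen in 20 probe sets for tips and in 4 for mesenchyme. The ratio of 3' to 5' signal of the Gapdh control lay between 0.903 and 1.01 on these 4 arrays. The second tip array had a lower signal for the BioB spike, 189.8 as deposited, against 314 to 358.5 on the other 3, and the 18S ribosomal RNA control had a 3' to 5' ratio of 0.522 and 0.552 in tips and 0.271 and 0.304 in mesenchyme. The part of these control differences in the results was not tested.

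The tissue labels were checked against defining genes. Cdh1, the adhesion protein of epithelia, read 1952 and 1938 on the tip arrays and 18.1 and 13.2 on the mesenchyme arrays. The mesenchyme values lie below 49.3, the median intensity used as the filter on dim probe sets. Foxd1, the regulator of kidney stroma, read 99.6 and 62.1 in tips and 1922 and 1889 in mesenchyme. Six2, the regulator of nephron progenitors, read 105 and 105 in tips against 563 and 633 in mesenchyme. Other defining genes of either tissue lay above or below the filter level in the opposite tissue, such as Epcam at 132 and 107 in mesenchyme and Meox2, a gene of nephron progenitors, at 20.6 and 17.4 in tips.

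The calls took in 1954 probe sets, or 8.15% of those tested. Tips were the higher tissue in 933 (3.89%) and mesenchyme in 1021 (4.26%). Counted by gene, 1200 of 12368 tested representatives were called (9.7%), 575 on the tip side (4.65%) and 625 on the mesenchyme side (5.05%), and the median difference over all representatives was 0.0060. No tested probe set at 2-fold or more missed the p threshold, so these counts rest on the fold. The 2 directions were alike in number at small differences and unlike at large ones. At least 4-fold differences were found in 209 genes on the tip side and 188 on the mesenchyme side, at least 8-fold in 77 and 48, at least 16-fold in 30 and 5, and at least 32-fold in 11 and 0. Folds this large depend on the added 16 where the other tissue is dim. Among the genes called higher in tips, 199 had a mesenchyme mean below the filter level and 376 did not. On the other side 199 had a tip mean below it and 426 did not. No called gene had overlapping tip and mesenchyme arrays. This adds little, since close labelings of tissues that differ 2-fold can hardly overlap. Genes that were not called, such as Jup and Wnt4, did not overlap either. With a pseudocount of 64 in place of 16, the calls came to 1266 probe sets, 623 on the tip side and 643 on the mesenchyme side.

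**Figure D1:**
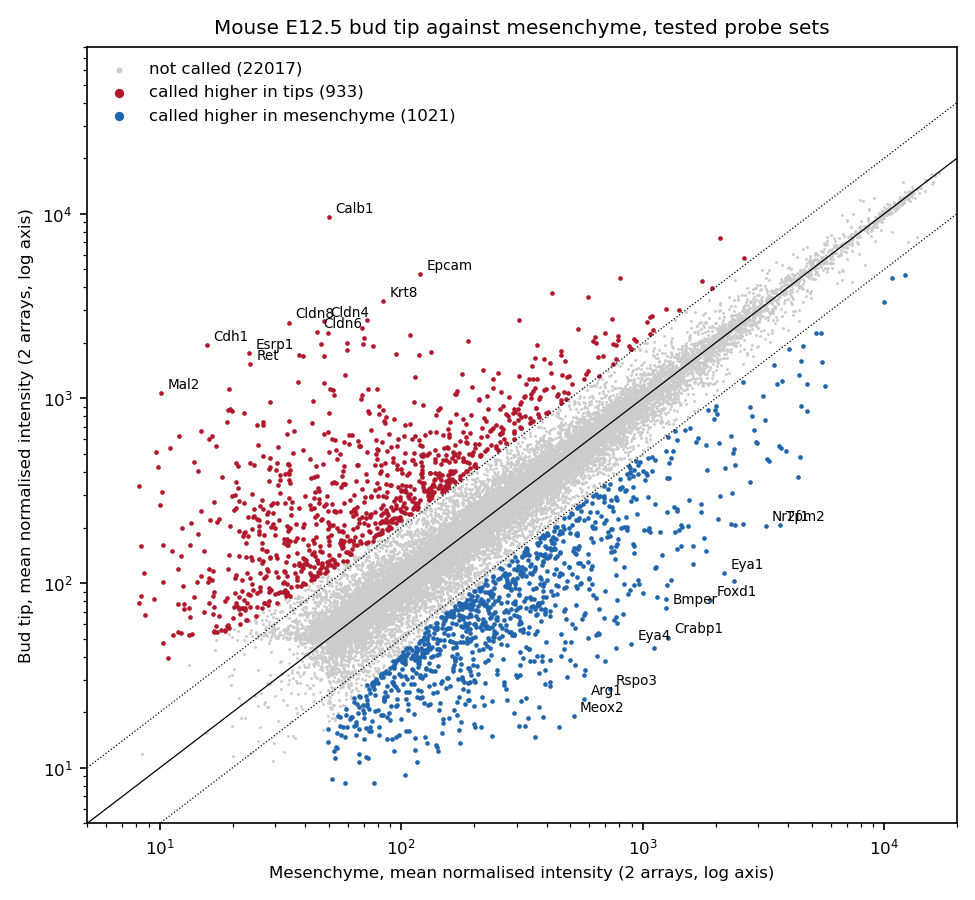
Mean normalised intensity in mesenchyme (horizontal, log axis) against bud tips (vertical, log axis) for the 23971 tested probe sets, each a mean of 2 arrays, with the 10 largest differences in each direction named. The solid line marks equality and the dotted lines 2-fold of the plain intensities, and 933 probe sets (red) lie on the tip side and 1021 (blue) on the mesenchyme side; the fold for calls is taken after adding 16, so some dim grey points lie beyond the dotted lines.

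The largest difference of any gene was in Calb1, the calcium buffer calbindin of the bud. Calb1 read 9563 and 9563 on the tip arrays, where it held the same rank on both, and 61.9 and 38.5 on the mesenchyme arrays (log2 difference 7.20, SE 0.13, adjusted p = 2.19e-09). This amounts to 147-fold after adding 16, and averaged over its probe sets the difference was 4.06. The stalk arrays, at 4289.9 and 4388, lay between the 2 tissues. Cdh1 followed (log2 difference 5.96, SE 0.08, adjusted p = 7.35e-10). Its mesenchyme readings are near the added 16, so the size depends on that offset, and it was 6.88 with 1 added and 4.66 with 64. The same holds for other genes of these 10 with mesenchyme readings below the filter level, such as Mal2, which ran from 3.94 to 6.60. Cldn8, a claudin of the tight junction, read 2636 and 2518 in tips and 38.1 and 30.4 in mesenchyme (log2 difference 5.69, SE 0.08, adjusted p = 6.74e-10). Esrp1, a splicing regulator of epithelia, read 1808 and 1708 against 21.6 and 25.4 (log2 difference 5.49, SE 0.08, adjusted p = 7.41e-10). Tip and mesenchyme arrays did not overlap in any of these genes, which their choice required. Mal2, a protein of apical membrane traffic, was at 1041 and 1108 in tips and 9.1 and 11.2 in mesenchyme (log2 difference 5.38, SE 0.09, adjusted p = 1.76e-09). The claudins Cldn4 (5.38) and Cldn6 (5.26) and the adhesion protein Epcam (5.13) were in the same range. Ret read 1572 and 1490.3 in tips, 298 and 309 in stalks and 19.8 and 27.4 in mesenchyme (log2 difference 5.29, SE 0.10, adjusted p = 3.89e-09). Krt8, a keratin of simple epithelia, closed the 10 with 3334 and 3378 against 87.8 and 80.2 (log2 difference 5.08, SE 0.05, adjusted p = 3.93e-10). Averaged over probe sets, Epcam was at 3.07 and Ret at 4.13. All such averages take in probe sets of the gene that were too dim to be tested, which can pull them toward 0. Of these 10 genes, 6 belong to cell junctions or the keratin skeleton.

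Among the 10 on the mesenchyme side, 5 were transcription factors or their cofactors. Foxd1 was 20.2-fold higher in mesenchyme (log2 difference -4.34, SE 0.15, adjusted p = 7.9e-08). Crabp1, a retinoic acid binding protein, read 61 and 40.5 in tips and 1309.8 and 1238 in mesenchyme (log2 difference -4.29, SE 0.13, adjusted p = 3.9e-08). Rspo3, a secreted enhancer of Wnt signalling, read 29.6 and 24 in tips against 761 and 700.0 in mesenchyme (log2 difference -4.13, SE 0.12, adjusted p = 2.34e-08). Eya1, a cofactor needed for nephron progenitors, read 127 and 101 in tips against 2132 and 2212 in mesenchyme (log2 difference -4.08, SE 0.09, adjusted p = 6.06e-09). Tpm2, a tropomyosin, read 216 and 196 in tips and 3659 and 3737 in mesenchyme (log2 difference -4.07, SE 0.05, adjusted p = 6.74e-10). The regulators Meox2 (-3.93), Eya4 (-3.89) and Nr2f1 (-3.88), the arginase Arg1 (-3.90) and the BMP-binding protein Bmper (-3.87) made up the rest. Averaged over probe sets, Rspo3 was at -2.20, Eya1 at -2.48 and Eya4 at -2.0. Bmper read 1273 and 1227 in stalks and 1215 and 1292 in mesenchyme, so stalk and mesenchyme overlapped there, while tips were at 95.5 and 51.8. Nr2f1, a nuclear receptor, was likewise high in stalks, at 2336 and 2338, against 219 and 191 in tips.

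**Figure D2:**
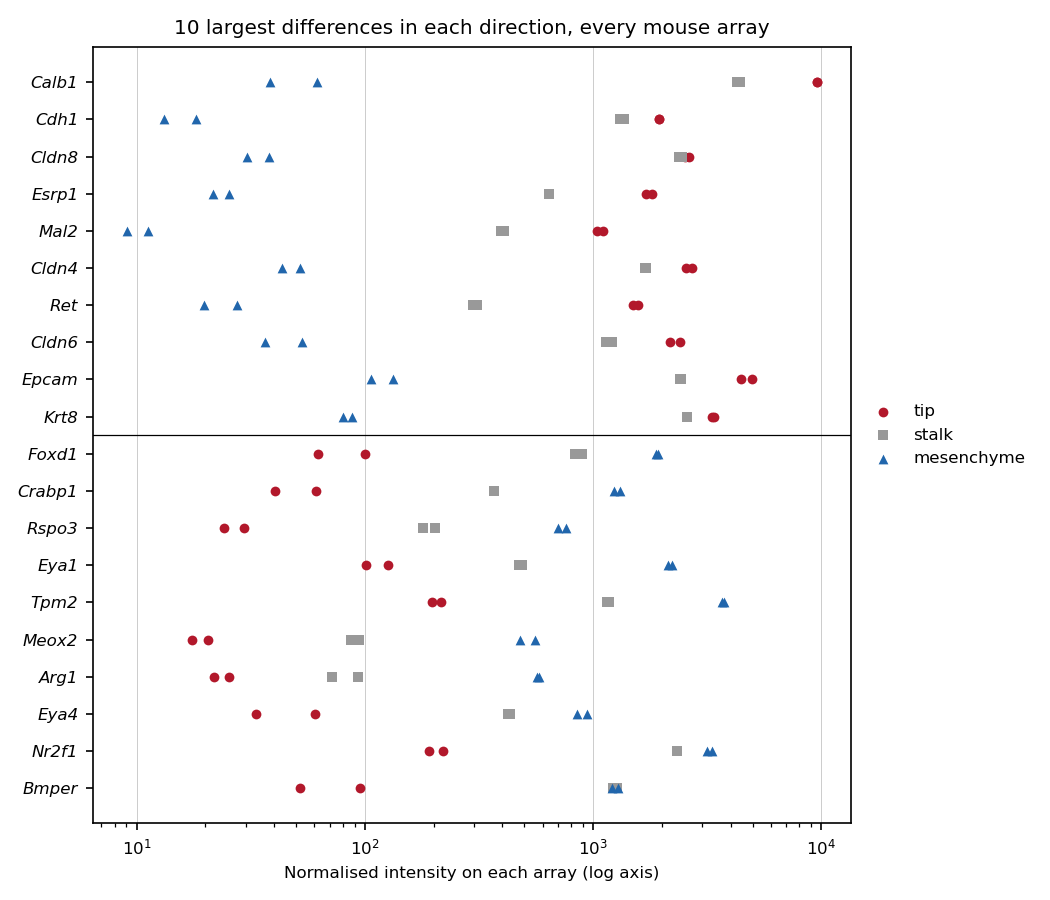
Normalised intensity (log axis) of the 10 genes with the largest differences in each direction on each of the 6 mouse arrays: tip (circles), stalk (squares) and mesenchyme (triangles), 2 arrays each. The upper 10 genes are higher in tips and the lower 10 higher in mesenchyme, and Calb1 reads 9563 in tips and 61.9 and 38.5 in mesenchyme.

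Beyond these genes, 36 lists with 674 genes were followed, of which 635 had a probe set with 1 symbol. Each list is given by its tested members, the number called in each direction and its median, to be read against 4.65% of all tested genes called higher in tips, 5.05% called higher in mesenchyme and an overall median of 0.0060. A list member is tested only if it is bright enough in at least 1 tissue. In these counts a tested member that was not called differed by less than 2-fold, and its adjusted p may still be under 0.05. The lists and members were chosen with earlier results of these data known, so their shares are descriptions and not tests.

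**Figure D3:**
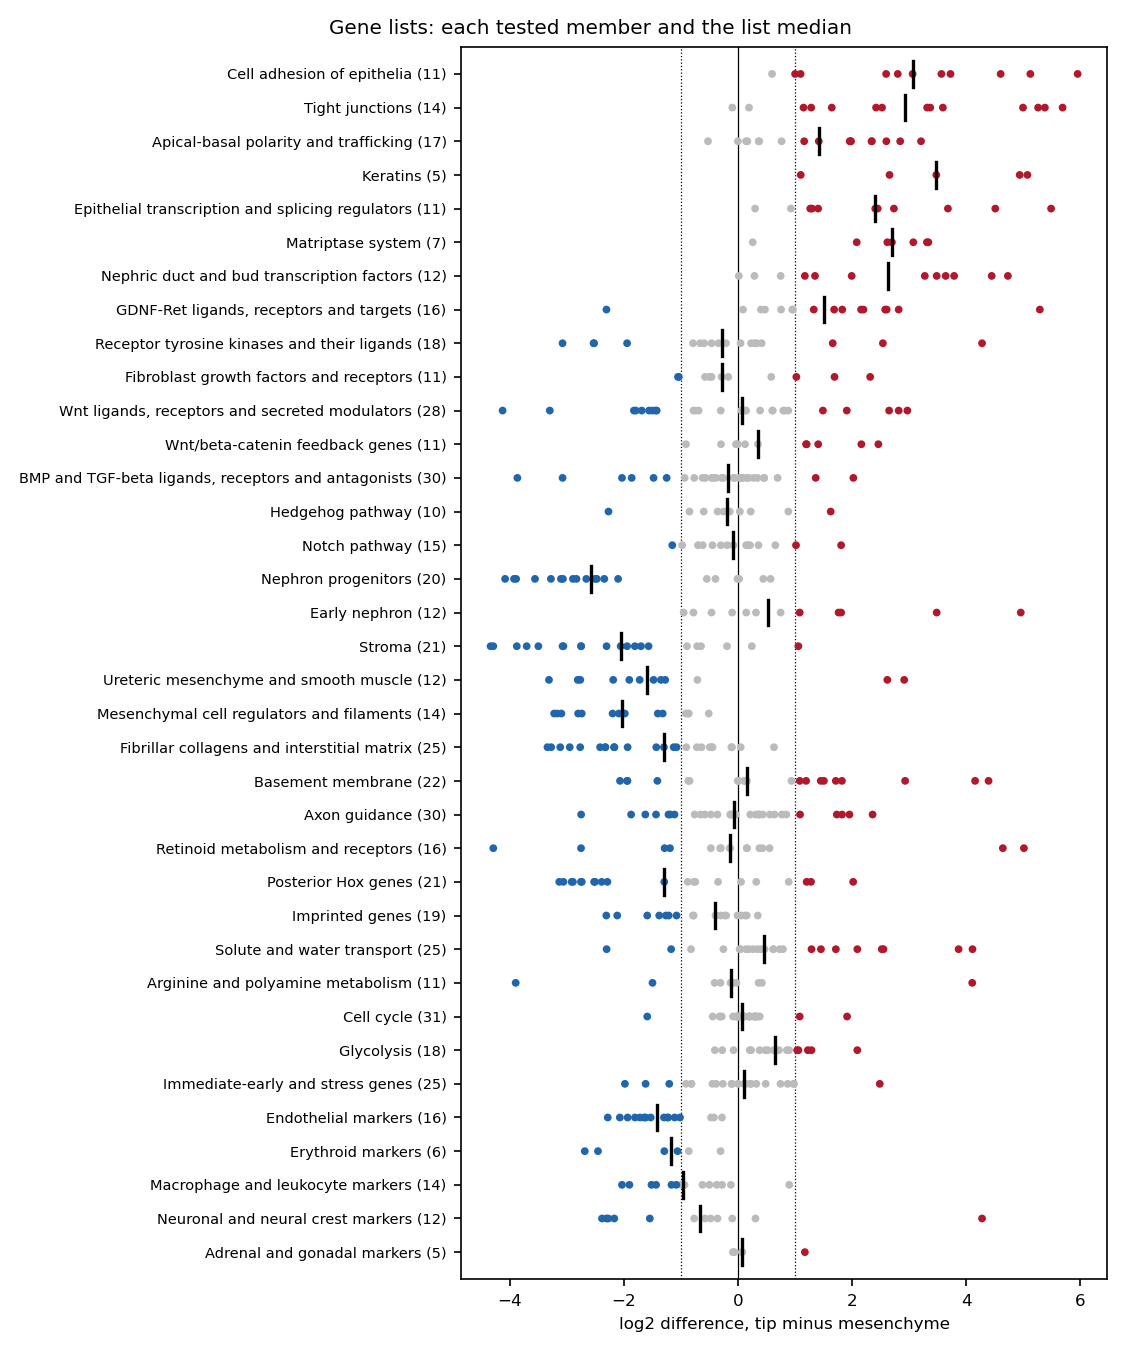
log2 difference, tip minus mesenchyme, of every tested member of the 36 gene lists (points, with the number tested in brackets), coloured red where called higher in tips, blue where called higher in mesenchyme and grey where not called. Black bars are list medians, which run from 3.48 for keratins to -2.58 for nephron progenitors; the dotted lines mark a 2-fold difference.

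The epithelial lists lay on the tip side. Adhesion proteins of epithelia were called higher in tips for 10 of 11 tested among 15 listed, with a median of 3.06. After Cdh1 and Epcam came the kidney cadherin Cdh16, at 1833 and 1827 in tips and 58.4 and 61.1 in mesenchyme (log2 difference 4.61, SE 0.06, adjusted p = 6.31e-10), and the desmosomal cadherin Dsg2 (3.73). Jup, the plakoglobin of both adherens junctions and desmosomes, was the member not called, at 0.60. Tight junction genes were called for 12 of 14 tested, with a median of 2.92, and none was called higher in mesenchyme. The claudins Cldn8, Cldn4, Cldn6 and Cldn7 (5.0) differed most, with tip readings of Cldn7 at 1976 and 1978 and mesenchyme readings at 42.2 and 50.7. The scaffold Tjp1, found also at junctions of other cell types, read 1121 and 1198 in tips and 1241 and 1242 in mesenchyme, and was not called (-0.098). Keratins were called for 5 of 5 tested (median 3.48), among them Krt18 (4.94), the partner of Krt8, as well as Krt7 (3.48) and Krt23 (2.66). Krt18 read 2780.2 and 2567 in tips and 83.1 and 61.2 in mesenchyme.

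Polarity and trafficking genes were less uniform. Of 17 tested, 10 were called on the tip side and 0 on the mesenchyme side, with a median of 1.42. The motor Myo5b of apical recycling read 439 and 382 in tips and 34.9 and 25.4 in mesenchyme (log2 difference 3.21, SE 0.13, adjusted p = 2.58e-07). The polarity protein Pard6b differed by 2.85, the epithelial clathrin adaptor Ap1m2 by 2.60 and the membrane protein Mal by 2.35. Pard3, a core polarity protein that other cells use as well, read 372 and 406 in tips and 357 and 344 in mesenchyme and was not called (0.14). Regulators of epithelial transcription and splicing were called higher in tips for 9 of 11 tested (median 2.41). Tfcp2l1, a transcription factor of the collecting duct, read 802 and 876 in tips and 30.0 and 14.4 in mesenchyme (log2 difference 4.51, SE 0.16, adjusted p = 1.17e-07). Grhl2, which maintains epithelial junction genes, differed by 3.68 and Ovol2, a repressor of mesenchymal genes, by 2.74. The matriptase system, a membrane protease cascade of epithelia with its own inhibitors, was called for 6 of 7 tested (median 2.70). Both inhibitors, Spint1 (3.34) and Spint2 (3.08), and the proteases Prss8 (3.31) and matriptase itself, St14 (2.70), stood on the tip side. Spint2 read 2689 and 2660.0 in tips and 250.2 and 367 in mesenchyme, so it was well above the filter level in both tissues.

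Transcription factors of the nephric duct and bud were called higher in tips for 9 of 12 tested (median 2.64). Emx2 read 1965 and 2017 in tips, 933 and 877 in stalks and 65.8 and 53.6 in mesenchyme (log2 difference 4.73, SE 0.08, adjusted p = 1.76e-09). Sim1 read 1015 and 896 in tips and 25.6 and 31.4 in mesenchyme (log2 difference 4.45, SE 0.12, adjusted p = 1.73e-08). Gata3, a guardian of nephric duct identity, differed by 3.79 and Tfap2a, an AP-2 factor, by 3.64. Pax8, shared by duct and early nephron, read 289 and 267 in tips and 169 and 149 in mesenchyme and was not called (0.75). Gata2 read 310.4 and 351 in tips and 304 and 350.3 in mesenchyme and was not called (0.014), with 1023 and 1218 in stalks. Its sign was negative without the second tip array or the first mesenchyme array.

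The GDNF-Ret axis was split by role. The ligand Gdnf read 75.6 and 65.4 in tips and 405 and 417 in mesenchyme (log2 difference -2.31, SE 0.11, adjusted p = 4.9e-07). The receptor Ret and its co-receptor Gfra1, at 1732 and 1572 in tips and 368 and 346 in mesenchyme (log2 difference 2.16, SE 0.06, adjusted p = 3.03e-08), were on the tip side. Of 16 tested genes of this list, 9 were called higher in tips and 1, Gdnf, higher in mesenchyme (median 1.51). Wnt11, a ligand made by branching tips, read 1453 and 1270.1 in tips against 183 and 175 in mesenchyme (log2 difference 2.82, SE 0.08, adjusted p = 2.97e-08). Cited4, a transcription cofactor, differed by 2.61 and the transcription factor Myb by 2.58. The receptor kinase gene Ros1 (2.20), the feedback inhibitor Spry1 (2628 and 2740.3 in tips against 744 and 743 in mesenchyme, 1.83) and the ETS factors Etv5 (1.69) and Etv4 (1.33; 0.73, not called, with probe sets averaged), targets of Ret signalling, were also called higher in tips, and are named here after their values were seen. The feedback genes were not all called. Dusp6, a phosphatase that limits ERK signalling, read 2735 and 2569.5 in tips and 1358 and 1363 in mesenchyme (0.95, not called). The inhibitor Spry2 was at 0.40 and the chemokine receptor Cxcr4 at 0.96, neither called. Cxcr4 was called at 1.0 with a pseudocount of 1, at 1.08 without the second tip array and in a test against a 1.5-fold difference, which sets no 2-fold minimum. Dusp6 was called in that last test as well.

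The lists of the mesenchyme were on the other side. Nephron progenitor genes were called higher in mesenchyme for 14 of 20 tested among 22 listed, and for 0 higher in tips (median -2.58). Eya1, Meox2 and Eya4 led, followed by Crym, a thyroid hormone binding protein, at 46.6 and 34.4 in tips and 631 and 661 in mesenchyme (log2 difference -3.56, SE 0.13, adjusted p = 1.45e-07). Six2 (-2.34), Wt1, a regulator of progenitors and later podocytes (-2.66), and the integrin Itga8 (-3.10), named here for their textbook role after their values were seen, were called as well. Wt1 read 101 and 71.5 in tips and 632 and 612 in mesenchyme. Cited1, a marker of the uncommitted progenitor, did not pass, with 219.7 and 198 in tips and 296 and 263 in mesenchyme (-0.39). Six4 read 387 and 409.7 in tips and 264 and 262 in mesenchyme (0.57, not called). Genes of the early nephron, the epithelium that progenitors form, were called higher in tips for 5 of 12 tested and higher in mesenchyme for 0 (median 0.53). Pou3f3 read 1725 and 1677 in tips and 43.1 and 35.5 in mesenchyme (log2 difference 4.96, SE 0.08, adjusted p = 1.28e-09), Lhx1, a factor of duct and nephron, differed by 3.48, the Notch ligand Jag1 by 1.81 and Irx3 by 1.76. Wnt4, the signal by which progenitors become epithelial, read 246 and 237 in tips and 408 and 444 in mesenchyme (-0.78, not called).

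Stromal genes were called higher in mesenchyme for 15 of 21 tested, with a median of -2.06. Foxd1 and Crabp1 differed most, then Nr2f1 and the homeobox factor Meis1, which read 95.4 and 68.1 in tips and 1265 and 1226 in mesenchyme (log2 difference -3.70, SE 0.11, adjusted p = 4.43e-08). Smoc2, a matrix-associated calcium-binding protein, was the 1 member called higher in tips (194 and 174 against 83.1 and 76.6, 1.06). It was not called without the first tip array (0.98), with a pseudocount of 64 (0.78) or with the mean of its probe sets (0.99). The opioid precursor Penk, a stromal gene, was at 39.2 and 26.5 in tips, 152 and 156 in stalks and 37.2 and 41.6 in mesenchyme. Regulators and filaments of mesenchymal cells were called higher in mesenchyme for 10 of 14 tested and higher in tips for 0 (median -2.04). N-cadherin, Cdh2, read 180.2 and 139 in tips and 1596 and 1625 in mesenchyme (log2 difference -3.22, SE 0.10, adjusted p = 3.91e-08), the reverse of Cdh1. Cdh11, the cadherin of loose mesenchyme, read 514 and 454 in tips against 4444 and 4498 in mesenchyme (log2 difference -3.17, SE 0.06, adjusted p = 1.97e-09). Zeb1, a repressor of epithelial genes, differed by -3.10 and Twist1 by -2.80, but Zeb1 fell short of 2-fold (-0.91) when its probe sets were averaged. The intermediate filament Vim, also picked for its textbook role, was called (-1.98), with 1137 and 1259 in tips and 5142 and 4441 in mesenchyme, so a mesenchymal filament was still bright in tips. Snai1, another repressor of Cdh1, was at -0.88 and not called, and was called with a pseudocount of 1 (-1.02) and without the second tip array (-1.01).

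Genes of the ureteric mesenchyme and smooth muscle were called higher in mesenchyme for 9 of 12 tested and higher in tips for 2 (median -1.60). Tbx18, which marks the mesenchyme around the ureter, read 72.2 and 35.5 in tips, 1620.1 and 1500.1 in stalks and 658 and 650.3 in mesenchyme (log2 difference -3.31, SE 0.20, adjusted p = 2.55e-06). Tshz2 (-2.81), the myosin light chain Myl9 (-2.76) and the actin Actc1 (-2.19) went the same way. The 2 T-box genes on the tip side were Tbx3, at 990.1 and 917 in tips and 101 and 125 in mesenchyme (log2 difference 2.92, SE 0.10, adjusted p = 7.79e-08), and Tbx2 (2.62), which are known from many epithelia and mesenchymes. Acta2, the smooth muscle actin, was not called (-0.71).

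Fibrillar collagens and interstitial matrix were called higher in mesenchyme for 15 of 25 tested and higher in tips for 0 (median -1.30). Col1a1 read 80.7 and 55.6 in tips and 866 and 789 in mesenchyme (log2 difference -3.34, SE 0.13, adjusted p = 1.45e-07). The adaptor protein Matn2 differed by -3.27, the proteoglycan Vcan by -3.12 and periostin, Postn, by -2.95. The matrix glycoprotein Fbln1 read 788 and 766 in tips and 1128 and 1074 in mesenchyme (-0.49, not called). Basement membrane genes were called in both directions, 9 of 22 higher in tips and 4 higher in mesenchyme (median 0.15). Npnt, nephronectin, which the bud lays down as the ligand of the integrin Itga8, read 1961 and 1899.5 in tips and 82.2 and 71.2 in mesenchyme (log2 difference 4.39, SE 0.07, adjusted p = 1.28e-09). Itga8 itself read 113 and 69.3 in tips and 889 and 884 in mesenchyme. Frem2 of the Fraser complex, an assembly at the basement membrane, differed by 4.16, while its relative Frem1 differed by -1.94. The laminin chains Lama1 (2.93) and Lama5 (1.82) were higher in tips, and the linker proteins Nid1 (-1.94) and Nid2 (-1.41) higher in mesenchyme. Sparcl1, a relative of the matrix protein Sparc, had the largest difference on that side (53 and 56.3 in tips, 292 and 269 in mesenchyme, -2.07). Nid1 was at -0.93 and not called with its probe sets averaged. The collagen IV chain Col4a1 read 1948 and 2062 in tips and 1051 and 1025 in mesenchyme (0.94, not called).

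Growth factor genes were called on both sides. Among receptor tyrosine kinases and their ligands 3 of 18 tested were called on the tip side and 4 on the mesenchyme side (median -0.28). The tip genes were the neuregulin receptor Erbb3, at 1203 and 1233 in tips and 41 and 54.6 in mesenchyme (log2 difference 4.28, SE 0.11, adjusted p = 1.17e-08), the Kit ligand gene Kitl (2.54) and the receptor Met (1.66). Kitl read 3454 and 3616 in tips and 611 and 577 in mesenchyme, and its receptor Kit read 343 and 385 in tips against 430.2 and 416 in mesenchyme (-0.21, not called). Met read 661 and 575 in tips against 200.1 and 169 in mesenchyme, and its ligand Hgf was dim in both, 41.9 and 43.4 in tips against 61.2 and 68.7 in mesenchyme (-0.46, not called). Pdgfra, a receptor of stromal cells, read 183 and 132 in tips and 1363 and 1509 in mesenchyme (log2 difference -3.08, SE 0.12, adjusted p = 1.71e-07), with Ddr2, a collagen receptor (-2.53), Igf1 (-2.52) and Pdgfrb (-1.94) on the same side. Igf2 was bright in both, 4149 and 4359 in tips and 7182 and 7529 in mesenchyme (-0.79, not called).

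Of 11 tested fibroblast growth factors and receptors, 3 were called on the tip side and 2 on the mesenchyme side (median -0.29). Fgfr2, the receptor the bud needs for branching, read 1423 and 1667 in tips and 754 and 744 in mesenchyme (1.02). Fgfr1 read 321 and 289.5 in tips against 654 and 631 in mesenchyme (-1.04). Both sat at the fold threshold, and neither was called without the second tip array (0.91 and -0.96), with a pseudocount of 64 (0.98 and -0.94) or with probe sets averaged (0.62 and -0.77). Fgf12 read 158 and 115 in tips and 28.8 and 32.5 in mesenchyme (1.69). Fgfr4 differed by 2.32 in its brightest probe set and by 0.83, not called, over all of them. When the brightest probe set was chosen again after either tip or either stalk array was left out, another one stood for it and was not called (lowest 0.40, without the second tip array). The same held with the tip and mesenchyme arrays alone (0.52) and with a pseudocount of 1 (0.63). Fgf20, a progenitor ligand, read 17.2 and 21.6 in tips and 75.4 and 42.6 in mesenchyme (-1.05), and it was not called without the first tip array (-0.96), with a pseudocount of 64 (-0.55) or in limma's test against a 1.5-fold difference (adjusted p = 0.243).

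Wnt pathway genes were called in both directions, 5 of 28 higher in tips and 9 higher in mesenchyme (median 0.063). The Wnt ligands called, Wnt9b, Wnt11 and Wnt6, were on the tip side. Wnt9b, the bud signal that acts on progenitors, read 577 and 563 in tips and 43.4 and 78 in mesenchyme (log2 difference 2.97, SE 0.18, adjusted p = 2.6e-06), and Wnt6 differed by 1.91. Wnt7b, a signal of the bud trunk, was at 0.88 and not called, with 222 and 276 in tips, 221 and 269 in stalks and 126 and 129 in mesenchyme, and without the first tip array it was called at 1.02. Of the R-spondins, Rspo3 and Rspo1 were on the mesenchyme side, Rspo1 at 34.4 and 21 in tips and 465 and 359.9 in mesenchyme (log2 difference -3.30, SE 0.18, adjusted p = 1.46e-06), while Rspo2 read 94.7 and 129 in tips against 88.4 and 112 in mesenchyme and was not called (0.13, arrays overlapping). Of their receptor genes, Lgr5 read 122 and 147 in tips against 43 and 37.9 in mesenchyme (1.41). Lgr4 read 1092 and 1075 in tips against 1066 and 1155 in mesenchyme and was not called (-0.034, arrays overlapping). Among the receptors, Fzd6 (2.65) was higher in tips and the Wnt5a receptor Ror2 (-1.79) higher in mesenchyme, though Ror2 was not called with probe sets averaged (-0.91). The secreted decoy Frzb (-1.82) was higher in mesenchyme. Feedback genes of beta-catenin signalling were called higher in tips for 5 of 11 tested and higher in mesenchyme for 0 (median 0.35). They were Tnfrsf19 (599.6 and 604 against 113 and 81.7, 2.46), the ubiquitin ligases Rnf43 (2.16) and Znrf3, and Lgr5 and Axin2 (1.21). The count was 3 with a pseudocount of 64 and 2 with probe sets averaged, and Lgr5 (0.92 and 0.69) and Axin2 (0.99 and 0.70) then fell short. The transcription factor Lef1 was at 0.35 and not called.

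BMP and TGF-beta genes were mostly not called. Of 30 tested, 2 were higher in tips and 6 higher in mesenchyme (median -0.17). Called or not, 21 of the 30 had an adjusted p under 0.05 in limma's test. The receptor Bmpr1b read 445 and 431 in tips and 97.6 and 93.5 in mesenchyme (log2 difference 2.02, SE 0.09, adjusted p = 4.12e-07), and the inhibitor Id4 differed by 1.36. Ligands and antagonists led in mesenchyme, Tgfb2 at 23.4 and 22.8 in tips and 312 and 314 in mesenchyme (log2 difference -3.08, SE 0.12, adjusted p = 1.47e-07), follistatin, Fst, at -2.03 and Tgfb3 at -1.86. Bmp7, made by both bud and progenitors, read 441 and 526 in tips and 273 and 311 in mesenchyme (0.70, not called), and was called at 1.03 with its probe sets averaged. In the Hedgehog pathway 1 of 10 tested, the ligand Shh, was higher in tips, and 1, the co-receptor Gas1, higher in mesenchyme (median -0.20). Shh read 321 and 344 in tips, 588 and 511 in stalks and 96.8 and 97 in mesenchyme (1.63; 0.96, not called, with probe sets averaged). Gas1 was at 1104 and 1228 in tips against 5543 and 5814 in mesenchyme (log2 difference -2.27, SE 0.05, adjusted p = 8.04e-09). The pathway's response genes Ptch1 (-0.25) and Gli1 (-0.60) were not called. Of 15 tested Notch genes 2 were called higher in tips, Jag1 (994 and 1037 against 284 and 273, log2 difference 1.81, SE 0.06, adjusted p = 3.99e-08) and Notch1 (1.02), and 1, the target gene Hey2, higher in mesenchyme (median -0.081). Hey2 read 17.2 and 13.7 in tips and 63 and 45.6 in mesenchyme (-1.15), and it was not called without the first mesenchyme array (-0.97) or with a pseudocount of 64 (-0.57). Notch1 was not called without the second tip array (0.99) or the first mesenchyme array (0.87), with a pseudocount of 64 (0.86) or with probe sets averaged (0.69). Notch2 was at -0.45.

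**Figure D4:**
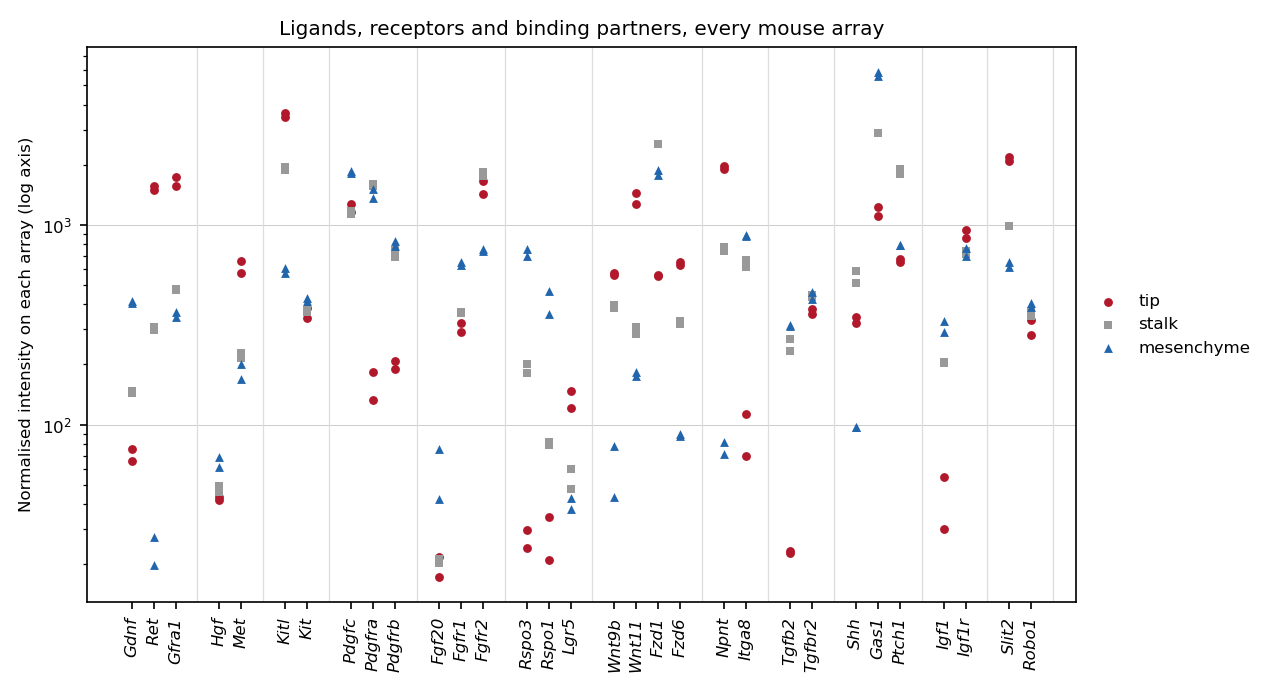
Normalised intensity (log axis) of ligands, receptors and binding partners on each of the 6 mouse arrays, with grey lines between groups of partners: tip (circles), stalk (squares) and mesenchyme (triangles). Gdnf is higher in mesenchyme and Ret in tips, Npnt higher in tips and Itga8 in mesenchyme, and Rspo3 and Rspo1 higher in mesenchyme and Lgr5 in tips; levels are not to be compared between genes, since each probe set has its own response.

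Axon guidance genes, which also steer branching and cell sorting in the kidney, were called for 5 of 30 tested higher in tips and 7 higher in mesenchyme (median -0.071). Efnb2, an ephrin, read 1905 and 1969.6 in tips and 388 and 342 in mesenchyme (log2 difference 2.36, SE 0.06, adjusted p = 1.86e-08). The secreted cues Sema3c (1.96) and Slit2 (1.73) were on the same side, and Slit2 read 2096 and 2199 in tips against 615 and 655 in mesenchyme. In mesenchyme the cue Ntn1 (29.5 and 32.5 in tips, 327 and 275 in mesenchyme, log2 difference -2.75, SE 0.14, adjusted p = 7.88e-07), the receptor Epha3 (-1.87) and the netrin receptor Unc5c (-1.62) were higher. The receptor Epha1 was higher in tips (1.82; 0.83, not called, with probe sets averaged). The receptor Nrp2 was higher in mesenchyme in its brightest probe set (-1.44), but not called with a pseudocount of 64 (-0.89), with probe sets averaged (-0.48) or in the probe set that was brightest without the first mesenchyme array (-0.13). Its relative Nrp1 was not called (-0.11).

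Retinoid genes included some of the largest differences in both directions, with 2 of 16 tested called higher in tips and 4 higher in mesenchyme (median -0.14). The retinoic acid synthesis enzyme Aldh1a1 read 1196 and 1054 in tips and 22.6 and 16.1 in mesenchyme (log2 difference 5.01, SE 0.12, adjusted p = 7.23e-09). Aldh1a3 read 872 and 875 in tips against 21.7 and 17.5 in mesenchyme (log2 difference 4.64, SE 0.10, adjusted p = 4.07e-09). Aldh1a2, another enzyme of the family, had the opposite order, 290.0 and 303 in tips and 2076 and 2099 in mesenchyme (log2 difference -2.75, SE 0.05, adjusted p = 1.55e-09). The retinol dehydrogenase Rdh10 (-1.29) and the binding proteins Crabp1 and Crabp2 (-1.19) were higher in mesenchyme. The receptor Rarb (-0.47) and the degrading enzyme Cyp26b1 (0.55) were not called. The arginases gave a similar mirrored pair. Arg2, the mitochondrial arginase, read 572 and 536 in tips and 15.8 and 18.3 in mesenchyme (log2 difference 4.11, SE 0.12, adjusted p = 2.75e-08), and Arg1, the cytosolic one, 25.4 and 21.8 in tips against 565 and 581 in mesenchyme (log2 difference -3.90, SE 0.14, adjusted p = 1.12e-07). Of 11 tested genes of arginine and polyamine metabolism 1, Arg2, was called higher in tips and 2, Arg1 and the polyamine-acetylating enzyme Sat1 (-1.5), higher in mesenchyme (median -0.11). Odc1, which starts polyamine synthesis, read 3050.3 and 3245 in tips against 3368 and 3052 in mesenchyme and its arrays overlapped.

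Listed Hox genes, which set position along the body axis, were called higher in mesenchyme for 11 of 21 tested and higher in tips for 3 (median -1.29). Hoxc10 read 111 and 64.4 in tips and 893 and 849.8 in mesenchyme (log2 difference -3.13, SE 0.18, adjusted p = 1.64e-06), Hoxa10 differed by -3.06, Hoxa9 by -2.92 and Hoxa11 by -2.89. Hoxa9 read 372 and 336 in tips and 2692 and 2859 in mesenchyme. The tip side held Hoxd8, at 1669 and 1600.2 in tips and 368 and 415 in mesenchyme (log2 difference 2.02, SE 0.06, adjusted p = 4.34e-08), Hoxd3 (1.28) and Hoxb6 (1.21). Within cluster D, Hoxd10 differed by -2.75, and Hoxd9, which lies between it and Hoxd8, was at 0.89 and not called, with 1825 and 1814 in tips and 1000.0 and 949.7 in mesenchyme. Hoxb9 overlapped between the tissues, with 281 and 334 in tips and 290.0 and 298 in mesenchyme.

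**Figure D5:**
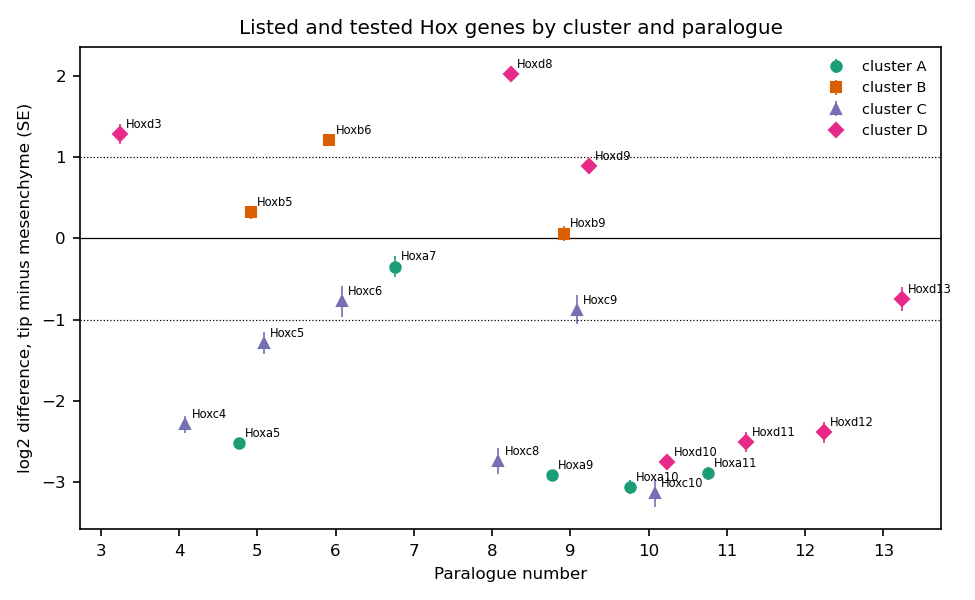
log2 difference, tip minus mesenchyme, of the 21 tested Hox genes of the list (points, with the standard error as bars) against paralogue number, with clusters A to D by colour and shape and dotted lines at a 2-fold difference. Hoxd8, Hoxd3 and Hoxb6 lie above the upper line, and the lowest point is Hoxc10.

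Imprinted genes, many of which regulate growth, were called higher in mesenchyme for 7 of 19 tested and higher in tips for 0 (median -0.39). Dlk1, a Notch-like membrane protein, read 106 and 91.9 in tips and 532 and 572 in mesenchyme (log2 difference -2.31, SE 0.09, adjusted p = 1.8e-07). The noncoding RNA Meg3 differed by -2.12 and the cell cycle inhibitor Cdkn1c, at 1314 and 1162 in tips and 3715 and 3792 in mesenchyme, by -1.59. The noncoding RNA Rian was at -1.38. With probe sets averaged 3 of the list were called, and Meg3 (-0.94) and Rian (-0.65) were not. Plagl1 was bright in both tissues, 5629 and 6277 in tips against 5379 and 5298 in mesenchyme (0.15, not called).

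Transport genes were called higher in tips for 8 of 25 tested and higher in mesenchyme for 2 (median 0.47). The potassium channel Kcnk1 read 1151 and 1110.0 in tips and 57.8 and 43.5 in mesenchyme (log2 difference 4.11, SE 0.10, adjusted p = 1.03e-08), the organic anion transporter Slco4c1 315 and 361 in tips against 7.2 and 9.2 in mesenchyme (log2 difference 3.87, SE 0.15, adjusted p = 1.45e-07). The sodium channel subunit Scnn1g (2.55) and the amino acid transporter Slc7a8 (2.52) were on the same side. The iron exporter Slc40a1 (-2.30) and the cotransporter Slc12a2 (-1.17) were higher in mesenchyme. Glycolytic genes were called higher in tips for 5 of 18 tested and higher in mesenchyme for 0 (median 0.64). The glucose transporter Slc2a3 read 545 and 576 in tips and 116 and 122 in mesenchyme (log2 difference 2.09, SE 0.08, adjusted p = 2.05e-07), and Slc2a1, which both lists hold, 3215 and 2924 in tips against 1352 and 1146 in mesenchyme (log2 difference 1.29, SE 0.08, adjusted p = 2.16e-06). Aldoc (1.23) and Ldhb (1.06) were called, but Aldoc was not with a pseudocount of 64 (0.92) or with probe sets averaged (0.64), nor Ldhb without the second tip array (0.96). The enzymes Ldha (0.52) and Pgk1 (0.38) were not called. Cell cycle genes were close to equal. Of 31 tested, 2 were called on the tip side and 1 on the mesenchyme side (median 0.074). The called ones were the inhibitor Cdkn1a, at 459 and 464 in tips and 105 and 117 in mesenchyme (log2 difference 1.91, SE 0.08, adjusted p = 3.15e-07), the cyclin Ccnd1 (1.08), a member of the early nephron list as well, and Cdkn1c. The proliferation marker Mki67 read 1739 and 1629 in tips and 1615 and 1587 in mesenchyme (0.071, not called), Top2a was at 0.20 and Pcna at 0.071.

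Immediate-early and stress genes, which dissociation can induce, were called higher in tips for 1 of 25 tested and higher in mesenchyme for 3 (median 0.11). The AP-1 subunit Fosl2 read 949 and 826 in tips and 155 and 135 in mesenchyme (log2 difference 2.49, SE 0.09, adjusted p = 7.87e-08). Fos read 2328 and 2177 in tips against 4987 and 5437 in mesenchyme (log2 difference -1.20, SE 0.05, adjusted p = 2.79e-07), and Klf2, a factor of endothelium and other cells, differed by -1.62. Egr3 was called at -1.98 in the probe set that is brightest over the 6 arrays, and in the one that is brightest over the tip and mesenchyme arrays alone it was at -0.032 and not called. Egr1 (0.49) and Jun (0.23) were not called, and the chaperone Hspa8 read 11774 and 11377 in tips and 11543 and 11575 in mesenchyme, with overlapping arrays. Without the first tip array 5 of these genes were called higher in mesenchyme, among them Fosb, which moved from -0.82 to -1.06. Without the second tip array, without the first mesenchyme array, with a pseudocount of 1 or in a test against a 1.5-fold difference, 3 were called higher in tips.

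Most vessel markers and part of the blood and nerve markers were higher in mesenchyme. Endothelial markers were called there for 13 of 16 tested and higher in tips for 0 (median -1.41). Their intensities summed to 1665 and 1723 on the tip arrays and 4774 and 4850.0 on the mesenchyme arrays. Plvap, a vesicle protein of vessels, read 111 and 81.7 in tips and 556 and 497 in mesenchyme (log2 difference -2.28, SE 0.13, adjusted p = 1.59e-06), followed by Ramp2 (-2.07), Emcn (-1.93) and Sox17 (-1.80). With a pseudocount of 64, 7 were called. Erythroid markers were called higher in mesenchyme for 4 of 6 tested (median -1.18), and summed to 8872 and 9419 in tips and 22645 and 22320.0 in mesenchyme. The embryonic globin Hbb-bh1 read 567 and 540.2 in tips and 3616 and 3679 in mesenchyme (log2 difference -2.69, SE 0.04, adjusted p = 1.28e-09). Another, Hbb-y, read 7207 and 7761 in tips against 13746 and 13469 in mesenchyme and was not called (-0.86), so red cell RNA was bright in both tissues. Hbb-y was called at -1.08 with its probe sets averaged and in a test against a 1.5-fold difference. Hba-x, another embryonic globin, differed by -2.45. Alas2, the first enzyme of heme synthesis in red cells (-1.29), and Slc4a1, the band 3 anion exchanger (-1.06), were called but not with a pseudocount of 64 (-0.83 and -0.76), and Slc4a1 was not called without the first mesenchyme array (-0.95) or in limma's test against a 1.5-fold difference (adjusted p = 0.0509).

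Macrophage and leukocyte markers were called higher in mesenchyme for 6 of 14 tested (median -0.97), and summed to 772 and 894 in tips and 1844 and 1753 in mesenchyme. The protease Ctss read 38.1 and 33.7 in tips and 225 and 171 in mesenchyme (log2 difference -2.03, SE 0.15, adjusted p = 1.04e-05), and the complement gene C1qa differed by -1.90. The receptor Csf1r was at -1.52 (-0.79, not called, with probe sets averaged). C1qb was at -1.44, but not called with a pseudocount of 64 (-0.97) or in limma's test against a 1.5-fold difference (adjusted p = 0.0747). With a pseudocount of 64, 3 of the list were called. Ptprc, the pan-leukocyte antigen, had the opposite order, 81.6 and 54 in tips and 35.3 and 22.3 in mesenchyme (0.90), and was called higher in tips with a pseudocount of 1 (1.21), without the second tip array (1.16) and without the first mesenchyme array (1.11). Neuronal and neural crest markers were called for 5 of 12 tested higher in mesenchyme and 1, Erbb3, higher in tips (median -0.67), with sums, Erbb3 included, of 1777 and 1808 in tips and 1583 and 1498 in mesenchyme. Erbb3 alone read 1203 and 1233 in tips and 41 and 54.6 in mesenchyme. The other members together were therefore higher in mesenchyme, the reverse of the order of these sums. The neurofilaments Nefl (21.1 and 25.3 against 225 and 157, -2.38) and Nefm (-2.30) led, with the motor and sensory neuron factor Isl1 (-2.27) and the neuronal stathmin Stmn2 (-2.17). The pan-neuronal Tubb3 (0.31) and the glial factor Sox10 (-0.36) were not called. Of 5 tested adrenal and gonadal markers among 12 listed, 1, Sox9, was called, higher in tips (1.17), and Sox9 is also a gene of the bud. With probe sets averaged it was at 0.78 and not called. The sums of that list, Sox9 included, were 861 and 938 in tips and 644 and 648 in mesenchyme. Sox9 alone read 445 and 452 in tips against 208.5 and 173 in mesenchyme, so the sums would be close without it. The list's defining steroid gene Cyp17a1 read 21.6 and 21.8 in tips against 22.8 and 20.5 in mesenchyme, below the filter level. Star, which feeds cholesterol to steroid synthesis, had overlapping arrays, 74.2 and 90.8 in tips against 66.7 and 88.7 in mesenchyme. No marker of these 5 lists was at 0 on any array. The lowest deposited value of any probe set was 5.3, so this does not show that these cells were present. The part of these cells in the differences of other genes was not tested.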

How the data were processed

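RNA was measured on Affymetrix mouse arrays. The deposited values are linear intensities, 1 for each probe set on each array, with scaling and summary method not given in the sources used here. Targets came from 1 ug of total RNA, per the labels' protocols. Here all 6 mouse arrays were quantile normalised, 64 control probe sets left out and log2(intensity + 16) taken. A probe set was tested if 1 tissue mean reached 49.3, the median of all values, which kept 23971 of 45037. Differences came from limma 3.58.1 in R 4.3.3 (lmFit, eBayes with an intensity trend, all 6 arrays in 1 fit). The fit was also run on simulated data, where only bright probe sets were changed, by more than 2-fold, with noise independent between arrays. That run cannot speak for dim genes, for genes near 2-fold or for deviations shared between arrays. Adjusted p-values are Benjamini-Hochberg values over all tested probe sets.

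In the platform annotation 34945 probe sets had 1 gene symbol, 932 several and 9160 none. The brightest of a gene's probe sets with 1 symbol stands for it. Named genes are the 10 largest differences in each direction, up to 4 called members per list and direction, and members that define a list. The 10 were taken from called genes whose tip and mesenchyme arrays did not overlap. The comparison, lists and members were chosen with earlier results of these data known. Rat arrays and sequences were not used here.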

Additional observations from a re-analysis of the deposited data

How the results depend on the processing

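Alternatives changed the scaling, pseudocount, filter, arrays, trend, block or test, 1 at a time. The count of 1954 called probe sets became 1266 with a pseudocount of 64, and the 1021 higher in mesenchyme became 643. Under the others it stayed within 1.5 times. Leaving out 1 array gave 1939 to 2025 in all, 877 to 1034 higher in tips and 969 to 1148 higher in mesenchyme. With the replicate number as a block the count was 1954, with the same 1954 probe sets, which shows nothing on stability, since a balanced block leaves the folds as they are and the calls rest on the fold. The labels do not say what a shared number marks. Deviations of same-numbered arrays correlated at 0.57 between tip and mesenchyme, 0.47 between tip and stalk and 0.42 between stalk and mesenchyme, and whether they shared a labelling batch was not tested. Of 191 named genes called, 166 kept their call under the alternatives chosen first, and 25 lost it under at least 1, most often with all probe sets of a gene averaged (19) or a pseudocount of 64 (13). The average takes in probe sets too dim to be tested, so a call lost with it need not mean that tested probe sets disagree. Calls were also gained, by 8 named genes in the test against a 1.5-fold difference, which sets no 2-fold minimum. Dusp6, Igf2, Col4a1 and Hoxd9 were among them. Signs turned in uncalled genes near 0. Leaving out 1 array gave Gata2 from -0.083 (first mesenchyme array) to 0.11, with -0.069 without the second tip array. It gave Star from -0.093 (first mesenchyme array) to 0.25, with -0.047 without the second tip array, and Hoxb9 from -0.064 (second tip array) to 0.17. Odc1 ran from -0.099 to 0.043 (first mesenchyme array), with 0.016 without the first tip array, and was 0.20 with probe sets averaged. Hspa8 ran from -0.027 (first tip array) to 0.026, with -0.00094 without the first mesenchyme array, and was -0.0020 as deposited, -0.0084 with trimmed-mean scaling and -0.027 with probe sets averaged. Rspo2 ran from -0.065 (second tip array) to 0.32, with -0.016 without the first mesenchyme array, and Lgr4 from -0.093 to 0.024 (second mesenchyme array), and was 0.053 with probe sets averaged. All of these except the averaging of probe sets kept the probe set that represents a gene. Keeping it was decided after choosing it again had been seen to end calls of Egr3, Fgfr4 and Nrp2, so choosing it again was added after seeing the data, and it ended the calls of these 3 named genes. With it included, 165 kept and 26 lost their call. The 2 labelings of 1 pool per tissue and a dim level in 1 tissue limit the precision of the folds.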

Other observations

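Most called genes were in none of the gene lists, 924 of 1200, with 446 higher in tips and 478 higher in mesenchyme. The largest of these were picked by size after the fit. On the tip side, beside Calb1 and Mal2, the clathrin adaptor subunit Ap1s3 read 2538 and 2302 in tips and 77.8 and 60.3 in mesenchyme (log2 difference 4.85, SE 0.10, adjusted p = 3.8e-09). The sphingosine phosphate phosphatase Sgpp2 read 839 and 861 in tips against 18 and 22 in mesenchyme (4.59). Ripk4, a kinase of epithelial differentiation, read 650.3 and 607 in tips against 11.2 and 12.9 in mesenchyme (4.52), and Kdf1, a keratinocyte differentiation factor, 584 and 615 in tips against 19.4 and 12.6 in mesenchyme (4.27). Plac8 differed by 3.98, Dcdc2a by 3.98, Mpzl2 by 4.04 and Tmem30b by 4.15. In each of these genes the stalk arrays read lower than the tip arrays and higher than the mesenchyme arrays. This is common to the tip side, where the stalk mean lay above both tissues in 28 of 575 called genes and below both in 3. It was less common on the mesenchyme side, where the stalk mean lay above both in 164 of 625 called genes and below both in 2.

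On the mesenchyme side, after Tpm2, the hyaluronan synthase Has2 read 46.2 and 29.4 in tips and 744 and 648 in mesenchyme (log2 difference -3.74, SE 0.15, adjusted p = 1.92e-07). The receptor Calcrl read 43.5 and 20.1 in tips against 600.0 and 546 in mesenchyme (-3.67), the matrix protein Tgfbi 224 and 195 in tips against 2464 and 2711 in mesenchyme (-3.53) and the collagen Col9a1 163 and 136 in tips against 1763 and 1882 in mesenchyme (-3.48). The transcription factors Foxc1 (-3.46), Maf (-3.43) and Runx1t1 (-3.40) and the protease Fap (-3.38) followed. AW551984 differed by -3.73.

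Of 650 genes with a call and at least 2 tested probe sets, 266 had every tested probe set called in 1 direction and 384 had only some called. None had probe sets called in opposite directions among these 650. Zeb1 is one of the partly called genes, with probe sets at -3.10 and -0.52, and Egr3 another, at -1.98 and -0.03.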
